A study of Homo sapiens with 12 samples.

Results

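The comparison described here is the difference between 2 responses to B cell receptor stimulation, that of U-2932 cells with wild-type Roquin2 and that of U-2932 cells with Roquin2 carrying the Y691F substitution. U-2932 is an established human line of diffuse large B cell lymphoma. The cells stably expressed Roquin2(WT), called WT below, or Roquin2(Y691F), called Y691F below. They were left untreated or were stimulated for 12 h with 10 µg/ml of F(ab')2-IgM, an antibody fragment that crosslinks the B cell receptor. All 12 of the 12 libraries of the study were used, 3 for each of the 4 groups (WT untreated, WT with IgM, Y691F untreated, Y691F with IgM), and the submitters describe the 3 as independent biological replicates. The labels name no deletion of the cells' own Roquin genes, no group lacked an introduced Roquin2, and the sources used here do not give the promoter that drove it or the number of independently made lines per form. A difference between the forms therefore cannot be told apart from a difference between the lines that carried them. The difference of responses was the log2 IgM response of Y691F minus the log2 IgM response of WT. A negative value means that a gene ended up lower, relative to its own untreated level, in Y691F than in WT. It was tested for 15112 of the 60675 genes in the table.

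Roquin2, the product of RC3H2, and its paralog Roquin1, the product of RC3H1, bind stem-loops in the 3′ ends of mRNAs and recruit enzymes that remove the poly(A) tail, so that the bound mRNAs are degraded. mRNAs of TNF, of NF-kB regulators such as TNFAIP3 and of other immune genes are known targets. KLHL6, a B cell adaptor of a CUL3 ubiquitin ligase, is known to bind Roquin2 and to promote its degradation after B cell receptor stimulation, and the tyrosine changed in Y691F is known to be needed for this. Engagement of the B cell receptor activates kinases, calcium, ERK and NF-kB signalling, first raises immediate early transcription factors, and later changes chemokine, antigen presentation, metabolic and cell cycle genes.

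The libraries held 16465393 to 21478790 counts, and levels are given as CPM, the counts of a gene scaled to a common library size with TMM factors. RC3H2 itself was at 109, 111 and 111 CPM in untreated WT and at 120, 120 and 123 CPM with IgM. In Y691F it was at 209, 209 and 208 CPM untreated and at 206, 207 and 204 CPM with IgM. The Y691F libraries all lay above the WT libraries, and a count over the gene cannot part the introduced from the endogenous mRNA. The 8 B cell markers checked summed to 12200 to 16800 CPM in every library. Of 15 myeloid markers, 5 had no count in any library and the sum was 1.17 to 2.15 CPM. Of 16 fibroblast and epithelial markers, 3 had no count and the sum was 22.7 to 28.1 CPM, most of it from EPCAM, at up to 24 CPM. Of 21 T and NK cell markers, CD3D, CD2, NKG7 and GNLY had no count. The sum over these 21 was 68.6 to 72.5 CPM in untreated WT, 129 to 141 in WT with IgM, 94.8 to 97.7 in untreated Y691F and 184 to 193 in Y691F with IgM, and LCK, TRAC, TRBC1 and TRBC2 made up most of it. In bulk RNA, fewer cells of a kind and less RNA per cell cannot be told apart.

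Most genes answered IgM in both lines and in the same direction. The WT response was called, at an adjusted p under 0.05, for 11623 genes (76.9% of those tested), of which 5809 rose and 5814 fell. The Y691F response was called for 11453 genes (75.8%), of which 5600 rose and 5853 fell. Among the 10122 genes called in both, 9906 moved in the same direction and 216 in opposite directions. Across genes the log2 responses of both lines had a Pearson r of 0.91 over 15112 genes, which are not independent replicates and share their libraries. The SD of the response over genes was 1.22 in WT and 1.10 in Y691F, both on the log2 scale. The difference of responses itself was called for 3883 genes (25.7%). It was higher in Y691F for 2217 (14.7%) and lower for 1666 (11%). Most of these differences were small, with a median size of 0.35 on the log2 scale, and 408 genes (2.7%) were called and at least 2-fold apart, 222 higher and 186 lower. Scaling by library totals in place of TMM turned the split of calls, from 57.1% higher to 46.4% higher. It also moved the median response of all genes from 0.00 to -0.13 in WT and from -0.01 to -0.18 in Y691F.

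**Figure D1:**
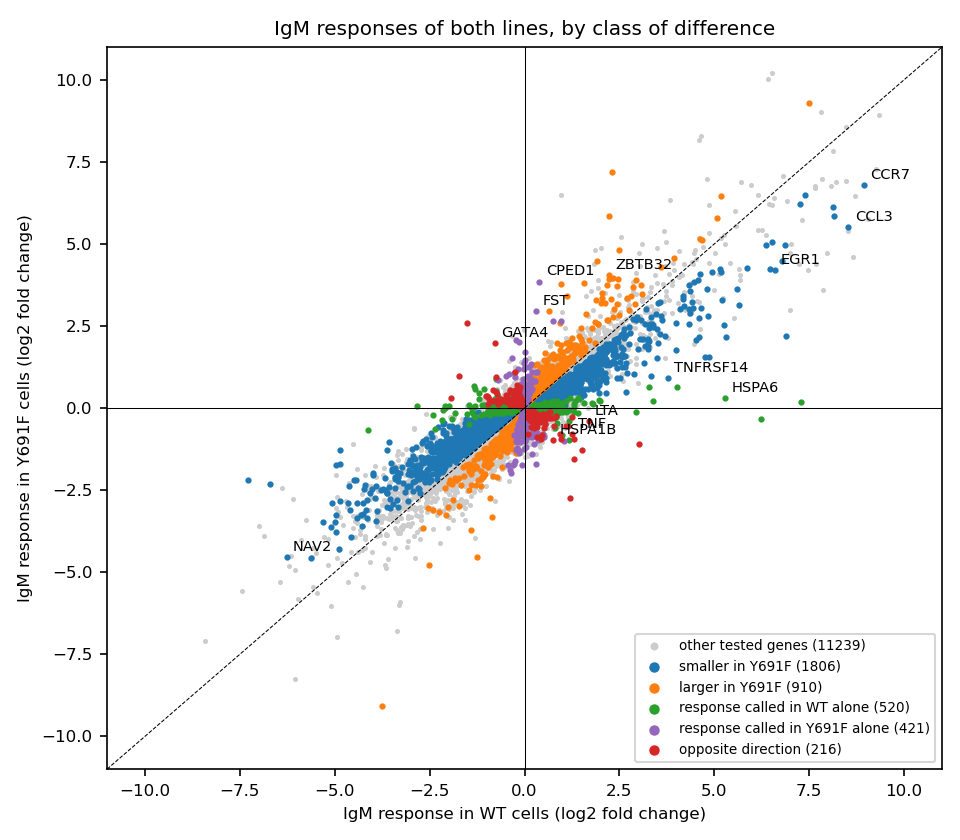
Each point is 1 tested gene, with its log2 IgM response in WT on the horizontal axis and in Y691F on the vertical axis, and colours mark the class of the difference of responses. Points on the dashed diagonal responded alike, and points far out rest on few counts in the untreated or the stimulated cells. LTA, TNF and HSPA1B lie at the lower right, with a rise in WT and a fall in Y691F, and CCR7 and CCL3 lie below the diagonal at the upper right.

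The 3883 called genes were sorted by their own responses in each line. The response went the same way but was smaller in Y691F for 1806 genes (46.5% of the called), 1033 that fell and 773 that rose. The median ratio of the Y691F to the WT log2 response in this class was 0.63. It was larger in Y691F for 910 genes (23.4%), 326 that fell and 584 that rose, with a median ratio of 1.68. For 520 genes (13.4%) only the WT response was called, and for 421 genes (10.8%) only the Y691F response was. In 373 of the 520 and in 295 of the 421, the response that was not called was under 0.1 in size on the log2 scale. The responses were called in opposite directions for 216 genes (5.56%), 108 with a rise in WT and a fall in Y691F and 108 with the reverse. Both responses missed the threshold for 10 genes.

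**Figure D2:**
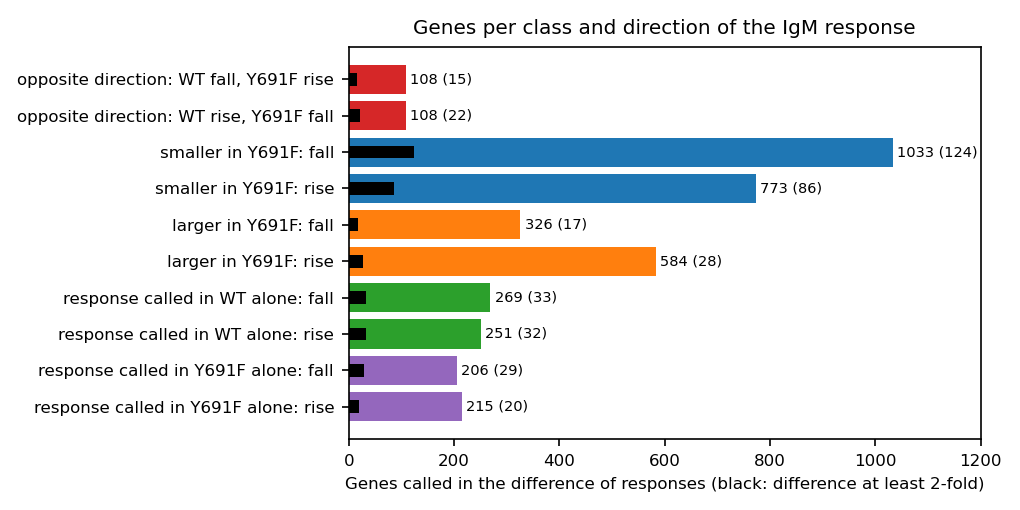
Bars give the number of genes called in the difference of responses for each class and direction, with black inner bars for those at least 2-fold apart. The fall that is smaller in Y691F holds 1033 genes, the most of any class, and each opposite class holds 108.

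Membership of the classes near 0 depended on the scaling. The same class and direction was found with TMM factors, with DESeq2 size factors and with library totals for 1479 of 1806 with a smaller response (81.9%) and 672 of 910 with a larger one (73.8%). It was found for only 75 of the 216 opposite genes (34.7%), 179 of the 520 called in WT alone (34.4%) and 175 of the 421 called in Y691F alone (41.6%). These are the classes defined by a response on the other side of 0 or near it. The share called went with the level: 3.8% of 2134 genes under a mean of 1 CPM were called against 47.2% of 2143 genes over 100 CPM, with a median SE of the difference of 0.58 and 0.05 on the log2 scale.

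A difference of responses can arise before stimulation, after it, or both. Of the 3883 genes, 1728 differed between the lines with IgM only, 738 in untreated cells only, 735 in both states in the same direction and 538 in both in opposite directions, and 144 in neither state. The gap between the lines was wider with IgM than without it for 2666 genes and narrower for 1217. Over all 15112 tested genes the lean was the same way, with the gap wider for 9153 and narrower for 5959. Of these 15112, 3422 differed with IgM only and 1776 in untreated cells only. Among the 773 smaller rises, Y691F was higher in untreated cells for 304 genes and lower for 94, and with IgM it was higher for 77 and lower for 553. Among the 1033 smaller falls, Y691F was higher untreated for 170 and lower for 396, and with IgM it was higher for 793 and lower for 39. Both leans follow from the class definitions. A smaller rise lowers Y691F relative to WT between the states, and a smaller fall raises it. The definitions do not set which state holds the gap. A smaller rise was a different starting level in some genes, a different end level in others, and in 108 of the 773 the order of the lines changed.

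Opposite responses were found for LTA and TNF, neighbouring cytokine genes (GRCh38, chr6:31572054-31574324 and chr6:31575567-31578336, both on the plus strand). LTA, which encodes lymphotoxin alpha, was at 36, 32.7 and 34.4 CPM in untreated WT and at 116, 106 and 110 CPM with IgM. The Y691F libraries were at 42.9, 44 and 42.3 CPM untreated and at 32.6, 32.2 and 32.6 CPM with IgM. WT with IgM lay far above the rest, and Y691F with IgM lay below untreated Y691F and next to untreated WT. LTA rose 3.23-fold in WT and fell 1.32-fold in Y691F, a difference of responses of -2.10 on the log2 scale (SE 0.07, adjusted p = 5.29e-43). TNF, the founding member of its cytokine family, was at 26.9, 28.4 and 25.4 CPM in untreated WT and at 63.5, 62.6 and 65.2 CPM with IgM. Y691F was at 40.9, 44.7 and 42.5 CPM untreated and at 26.6, 24 and 23.4 CPM with IgM. Untreated Y691F lay above untreated WT, Y691F with IgM overlapped untreated WT, and WT with IgM was the highest group. TNF had a rise of 2.36-fold in WT, a fall of 1.73-fold in Y691F and a difference of -2.03 (SE 0.08, adjusted p = 1.28e-38). Both kept opposite responses under all 3 scalings.

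Other genes rose with IgM in WT and fell in Y691F. FCRL5, an inhibitory Fc receptor-like protein of B cells, went from 38, 37.7 and 38.4 CPM to 54.6, 48 and 51.3 CPM in WT and from 69.2, 66.5 and 69.5 CPM to 34.8, 36.4 and 35.4 CPM in Y691F. Untreated Y691F was the highest group and Y691F with IgM the lowest, and the difference of responses was -1.37 (SE 0.07, adjusted p = 2.68e-30). MYC, a transcription factor of growth and proliferation, rose by 0.66 in WT, from 12.1 to 19.1 CPM on average, and fell by 0.31 in Y691F, from 19 to 15.2 CPM. The untreated Y691F and the stimulated WT libraries overlapped for MYC. IL10RA, a chain of the interleukin 10 receptor, was at 102 to 105 CPM in Y691F with IgM and at 163 to 179 CPM in the other 9 libraries. Its small WT rise of 0.10 was called with TMM factors but not with library totals, while its fall of 0.78 in Y691F was called with both.

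Gene lists are described below by their counts, to be read beside the 25.7% called over all tested genes, 14.7% higher and 11% lower. The share called rose with the level, from 14.4% at 1 to 10 CPM to 33.1% at 10 to 100 CPM and 47.2% over 100 CPM. The lists were not matched for level, so a share above 25.7% can go with the level of the members alone. Heat shock genes, which encode chaperones that fold or protect proteins, held the largest single difference among the called members of the lists, and moved in both directions. Of 25 tested members of the list, 10 were called lower in Y691F, 6 higher and 9 were not called, with a median difference of -0.03 beside 0.01 over all tested genes. The 10 were HSPA6, SERPINH1, HSPB1, HSPA1A, HSPA1B, DNAJB1, HSPA1L, BAG3, HSPH1 and HSP90AA1. The 6 were DNAJB6, HSPA8, the factor HSF1, HSPD1, DNAJA1 and AHSA1, and their differences were between 0.12 and 0.32. The promoters of HSPA6, HSPA1B and HSPB1, chosen after their values were seen, are shown because they belong to the members with large differences, 2 of them called in WT alone and HSPA1B opposite. Sequences are from RefSeq (GRCh38.p14, plus strand), run 5′ to 3′ and end where the first annotated exon begins, which in HSPB1 is 129 bases before the RefSeq start. Capitals mark pairs of inverted GAA units as in the binding element of heat shock factors, searched as GAANNTTC and TTCNNGAA. Each motif reads the same on both strands, and where matches overlap they appear as 1 longer run.
HSPA6, chr1:161524290-161524539: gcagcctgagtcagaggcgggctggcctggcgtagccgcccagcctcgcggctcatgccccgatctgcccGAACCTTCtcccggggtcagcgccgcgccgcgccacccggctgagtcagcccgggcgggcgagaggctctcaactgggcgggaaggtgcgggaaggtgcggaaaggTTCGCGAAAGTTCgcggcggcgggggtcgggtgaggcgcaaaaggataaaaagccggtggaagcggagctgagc
HSPA1B, chr6:31827488-31827734: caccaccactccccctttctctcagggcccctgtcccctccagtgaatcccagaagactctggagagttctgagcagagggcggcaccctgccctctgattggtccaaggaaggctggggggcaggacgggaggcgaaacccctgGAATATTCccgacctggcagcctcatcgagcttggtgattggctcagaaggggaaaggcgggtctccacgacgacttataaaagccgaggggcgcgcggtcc
HSPB1, chr7:76302423-76302543: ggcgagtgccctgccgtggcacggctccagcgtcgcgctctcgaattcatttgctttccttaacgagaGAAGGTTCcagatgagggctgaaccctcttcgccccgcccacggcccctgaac

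HSPA6 held 3 such matches, and HSPA1B and HSPB1 held 1 each. In the 250 bases before the start, 10 of the 23 tested list members that matched a RefSeq promoter held a match (43.5%), against 4067 of all 35116 promoters (11.6%). The first share counted 1 promoter per gene, and the second every RefSeq promoter, also those of untested genes. A match is a description of letters, and it did not go with 1 direction. HSPA8, with 4 matches, and DNAJB6, with 2, rose more in Y691F than in WT, and DNAJB1, which responded in opposite directions, had none in this window. CHORDC1 had 6 matches and was not called, with a difference of -0.05.

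The values behind these promoters were far apart. HSPA6, an inducible HSP70 that is nearly silent in unstressed cells, was at 0.287 to 0.935 CPM in untreated WT and at 27.1, 24.6 and 24.4 CPM in WT with IgM. In Y691F it was at 0.101 to 0.414 CPM untreated and at 0.254 to 0.375 CPM with IgM. It rose 38.9-fold in WT, and in Y691F the log2 response of 0.30 was not called, with a 95% interval from -0.70 to 1.29. The difference was -4.98 (SE 0.65, adjusted p = 9.48e-10). HSPB1, a small heat shock protein, went from 1.59, 2.14 and 1.32 CPM to 19.5, 17.9 and 16.2 CPM in WT, and stayed within 1.24 to 1.83 CPM in the 6 Y691F libraries. It rose 10.4-fold in WT, and its Y691F response of 0.22 had an interval from -0.23 to 0.66. SERPINH1, a collagen chaperone, was at 0.134 to 0.265 CPM in untreated WT, at 2.74 to 3.53 CPM in WT with IgM and at 0.23 to 0.612 CPM in all Y691F libraries.

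HSPA1A, HSPA1B and DNAJB1 rose in WT and fell in Y691F. HSPA1B, an inducible HSP70, was at 374, 355 and 361 CPM in untreated WT and at 596, 612 and 640 CPM with IgM. The Y691F libraries were at 270, 272 and 257 CPM untreated and at 137, 128 and 144 CPM with IgM. It rose by 0.76 in WT and fell by 0.97 in Y691F, a difference of -1.73 (SE 0.05, adjusted p = 1.13e-46), and the lines already differed in untreated cells. HSPA1A, the near-identical neighbour of HSPA1B, had a difference of -1.90, and reads that both copies share could not be assigned from what the sources used here say of the counting. DNAJB1, the HSP40 partner of these chaperones, was at 118, 112 and 114 CPM in untreated WT, at 275, 271 and 276 CPM in WT with IgM, at 105, 101 and 104 CPM in untreated Y691F and at 82.8, 84.2 and 90.4 CPM in Y691F with IgM. The constitutive HSPA8 rose in both lines, by 0.20 in WT and 0.48 in Y691F. HSPH1, a nucleotide exchange factor of HSP70, fell by 0.25 in WT and by 0.79 in Y691F.

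**Figure D3:**
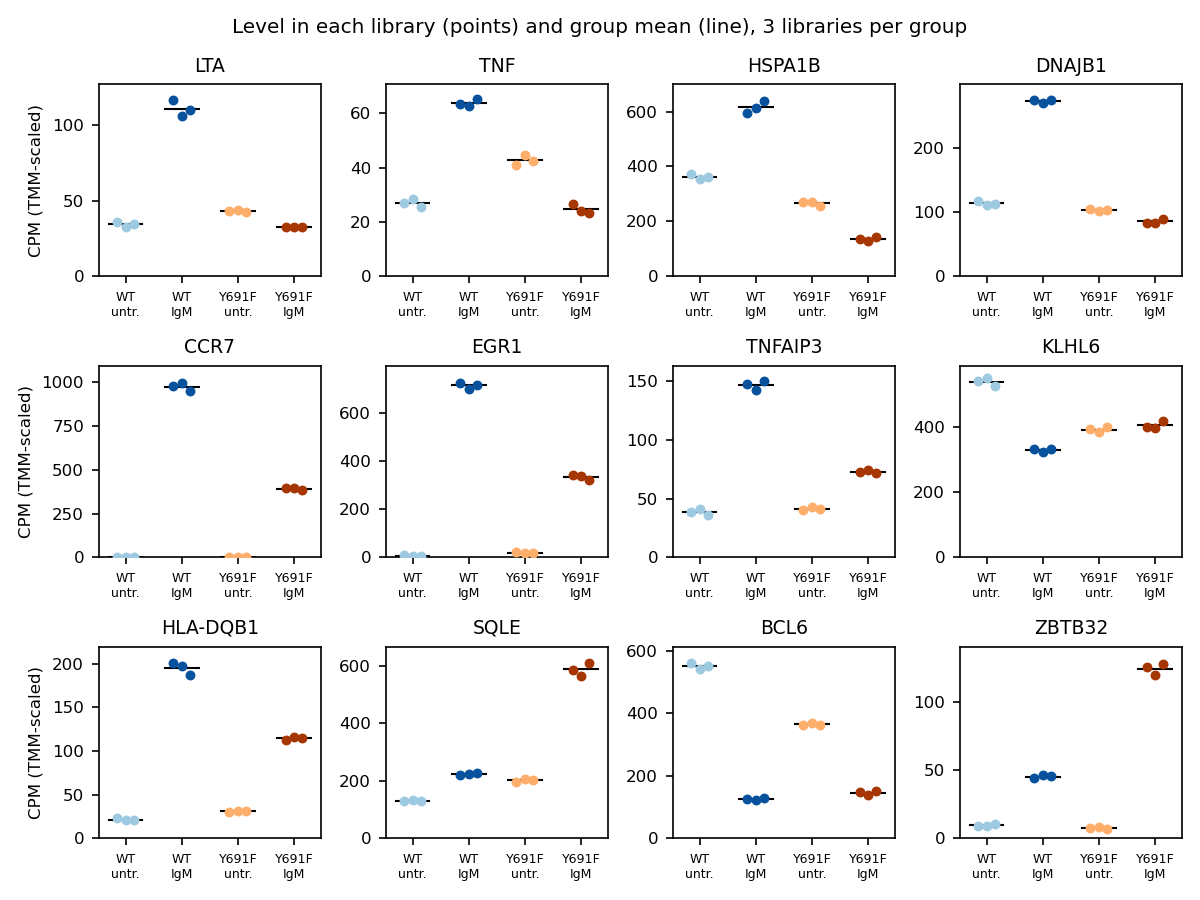
Level in CPM on the vertical axis, from 0, of 12 genes in each of the 12 libraries (points), with the mean of each group of 3 as a line. LTA, TNF, HSPA1B and DNAJB1 go up with IgM in WT and down in Y691F, and KLHL6 falls in WT while the Y691F libraries lie between 384 and 419 CPM.

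The reverse opposite response, a fall in WT and a rise in Y691F, was seen in genes of several kinds. TRIB2, a pseudokinase, went from 21.4, 20.1 and 21.9 CPM to 10.5, 12.8 and 14.1 CPM in WT and from 25.9, 26.1 and 25.8 CPM to 49.1, 49.2 and 50.4 CPM in Y691F. It fell by 0.76 in WT and rose by 0.93 in Y691F, a difference of 1.69 (SE 0.09, adjusted p = 1.88e-27). GATA4, a developmental transcription factor, was at 1.72 to 2.6 CPM in untreated WT, 0.778 to 1.57 CPM in WT with IgM, 1.84 to 1.97 CPM in untreated Y691F and 7.1 to 7.99 CPM in Y691F with IgM. The untreated lines overlapped for GATA4, and the stimulated ones did not, a difference of 2.76 (SE 0.28). SLC7A8, an amino acid transporter, fell from 1.54 to 2.24 CPM to 0.299 to 0.701 CPM in WT and rose from 1.97 to 3.02 CPM to 4.25 to 4.99 CPM in Y691F, a difference of 2.71 (SE 0.33). BCL3, an atypical IkB protein that acts with NF-kB subunits and was chosen after its value was seen, fell by 0.83 in WT and rose by 0.21 in Y691F. Its class under the other scalings is not given here. Y691F rises of about this size depended on the scaling: with library totals that of SPRED2, 0.18, was not called, and that of CDC20, 0.24, was.

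HES6, a transcription factor of the Hairy family, fell in WT from 13.8 to 17.6 CPM to 3.56 to 4.55 CPM. Y691F was at 11 to 13.8 CPM untreated and at 14.4 to 16.7 CPM with IgM, a rise of 0.30 that was not called with library totals. GAPDH, a glycolytic enzyme often used as a reference, had small log2 changes, a fall of 0.20 in WT and a rise of 0.12 in Y691F. Its mean went from 5752 to 4994 CPM in WT and from 5190 to 5643 CPM in Y691F. With library totals only the fall was called. KEAP1 moved in opposite directions with TMM factors and was a smaller fall with library totals. CHAC1, a glutathione-degrading enzyme, fell by 0.26 in WT and rose by 1.09 in Y691F, but its untreated Y691F libraries, at 5.04 to 5.85 CPM, were below all others, and with IgM both lines overlapped at 10.1 to 14 CPM.

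Genes that rose in both lines but less in Y691F included many that IgM induced strongly. CCR7, a chemokine receptor that guides B cells to the T cell zone, was at 2.28, 1.96 and 1.66 CPM in untreated WT and at 980, 994 and 951 CPM with IgM. In Y691F it was at 3.4, 3.73 and 3.58 CPM untreated and at 395, 396 and 386 CPM with IgM. It rose 492-fold in WT and 110-fold in Y691F, a difference of -2.16 (SE 0.15, adjusted p = 1.15e-21). TNFRSF14, the receptor HVEM, went from 5.78, 6.36 and 6.2 CPM to 86.5, 83.7 and 82.3 CPM in WT and from 7.82, 5.54 and 6.8 CPM to 13.7, 12.7 and 11.7 CPM in Y691F. Its untreated libraries overlapped between the lines (log2 difference 0.14, adjusted p = 0.349), and the lines were apart with IgM, a difference of -2.87 (SE 0.13). EGR1, an immediate early zinc finger factor, went from 8.06, 7.08 and 7.17 CPM to 725, 702 and 720 CPM in WT, and from 20.4, 17.8 and 16.3 CPM to 343, 337 and 322 CPM in Y691F. Untreated Y691F was above untreated WT for EGR1 and stimulated Y691F below stimulated WT.

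For several genes of this class the higher untreated level in Y691F carried much of the difference. CCL3, a chemokine that attracts T cells and monocytes, was at 0.516 to 1.33 CPM in untreated WT and at 4.03 to 4.45 CPM in untreated Y691F. With IgM it was at 350 to 360 CPM in WT and at 190 to 196 CPM in Y691F. The difference of responses was -3.03 (SE 0.18), of which the untreated gap was 2.15 and the stimulated gap -0.88. CCL3 and CCL4 have near-identical copies, CCL3L3 and CCL4L2, and the sources used here do not say how shared reads were counted. NR4A3, an orphan nuclear receptor, was at 2.76 to 3.15 CPM in untreated WT, 12.2 to 14 CPM in untreated Y691F, 321 to 362 CPM in WT with IgM and 405 to 430 CPM in Y691F with IgM. Y691F was higher in both states, and the fold was still smaller there, 31.3 against 117. SLAMF7, a surface receptor of plasma cells, rose from 20.2 to 21.7 CPM to 989 to 1046 CPM in WT and from 46 to 48.4 CPM to 580 to 600 CPM in Y691F, a difference of -1.97 (SE 0.06, adjusted p = 1.86e-46). BHLHE41, a repressor of the clock family, rose 24-fold in WT and 4.51-fold in Y691F.

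Of 25 tested immediate early genes, 16 were called lower in the difference, none was called higher, and 14 of the 16 were smaller rises. By edgeR at an unadjusted p under 0.05, and by the DESeq2 Wald test and limma-voom, 0 were higher too. Their median difference was -0.59, and the median log2 response was 2.62 in WT and 2.12 in Y691F. EGR3 rose by 4.52 in WT and 2.07 in Y691F, JUN by 2.51 and 0.90, and FOS by 6.37 and 4.97. The median gap of Y691F over WT in this list was 0.417 in untreated cells and -0.175 with IgM, on the log2 scale, and for FOS the stimulated means were alike, 28.8 and 29.1 CPM. ZFP36, an mRNA decay factor of the same early wave, rose by 2.00 and 2.12 and was not called in the difference (adjusted p = 0.154).

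NF-kB targets were lower in the difference for 24 of 37 tested members and higher for 7, with a median of -0.38. TNFAIP3, the ubiquitin-editing brake A20 and a reported Roquin target, was at 38.9, 40.9 and 36.1 CPM in untreated WT and at 148, 143 and 150 CPM with IgM. The Y691F libraries were at 40.6, 42.5 and 41 CPM untreated and at 72.3, 74.2 and 71.4 CPM with IgM. The untreated lines did not differ past the threshold (log2 difference 0.09, adjusted p = 0.143), and TNFAIP3 rose 3.79-fold in WT and 1.76-fold in Y691F, a difference of -1.11 (SE 0.06, adjusted p = 3.66e-27). The inhibitors NFKBIE and NFKBID of the IkB family rose 6.14-fold and 2.96-fold in WT and 3.02-fold and 1.32-fold in Y691F. The survival gene BCL2A1 rose 2.77-fold in WT and 1.34-fold in Y691F. In the other direction, TNFAIP2 fell by 4.59 in WT and 3.10 in Y691F, and IRF1 and MAP3K8 rose more in Y691F than in WT.

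Of 17 tested genes reported as Roquin targets, 10 were called lower, 2 higher and 5 were not called, with a median difference of -0.45. The list overlaps the NF-kB list, and a count over known targets is a description of these libraries. Besides TNF, TNFAIP3, NFKBID and MYC, the lower members were CD83, IRF4, ZC3H12A, NFKBIZ, REL and CXCL8. IRF4, a transcription factor of plasma cell fate, rose from 400 to 850 CPM on average in WT and from 569 to 848 CPM in Y691F, so the lines met with IgM. CXCL8 had 0 counts over the 3 untreated WT libraries, 40 with IgM, and 3 and 13 in Y691F, and no fold is given. The higher members were CDKN1A, which rose by 0.63 in WT and 0.98 in Y691F, and BCL6, whose fall was smaller.

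Among cytokines and their receptors, 15 of 30 tested were called lower and 6 higher, with a median difference of -0.35 and median responses of 0.97 in WT and 0.39 in Y691F. IL2RA and IL2RG, chains of the interleukin 2 receptor, rose by 2.07 and 2.01 in WT and by 0.89 and 1.16 in Y691F, while IL2RB, the third chain, rose by 5.17 and 6.46. EBI3, a cytokine subunit, rose in WT and fell by 1.28 in Y691F, a difference of -2.78, at a mean level under 1 CPM. Chemokines and migration receptors were lower for 9 of 20 and higher for 6. The lower ones were led by CCL3, CCL3L3, CCL4, CCR7 and CCL4L2, and the higher ones included the adhesion or positioning receptors ITGB7, P2RY8, ITGA4, CCR10 and S1PR2, of which all but ITGA4 had a smaller fall.

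Antigen presentation by MHC class II was the list with the largest share of calls, 15 of 17 tested members lower and none higher, with a median difference of -0.675 and median responses of 1.76 in WT and 1.09 in Y691F. The count of higher members was also 0 by edgeR at an unadjusted p under 0.05, by the DESeq2 Wald test and by limma-voom. The median gap of Y691F over WT in this list was 0.434 in untreated cells and -0.231 with IgM, on the log2 scale. HLA-DQB1 was at 23.4, 20.6 and 20.4 CPM in untreated WT, 200, 198 and 187 CPM in WT with IgM, 30.2, 30.9 and 31.1 CPM in untreated Y691F, and 113, 116 and 115 CPM in Y691F with IgM. It rose 9.08-fold in WT and 3.72-fold in Y691F, a difference of -1.29 (SE 0.07, adjusted p = 3.58e-29). HLA-DRA rose 3.39-fold and 2.12-fold, from 230 to 244 CPM to 790 to 816 CPM in WT and from 334 to 350 CPM to 714 to 738 CPM in Y691F. CIITA, the transactivator of these genes, rose by 2.07 in WT and 1.39 in Y691F. The peptide loading chain HLA-DMB rose by 0.34 in WT and fell by 0.57 in Y691F, and HLA-DOA and HLA-DOB fell more in Y691F. The invariant chain CD74, at -0.07, and CTSS, at -0.17, were not called. HLA genes are polymorphic and alike in sequence, so single members are less certain than the list.

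**Figure D4:**
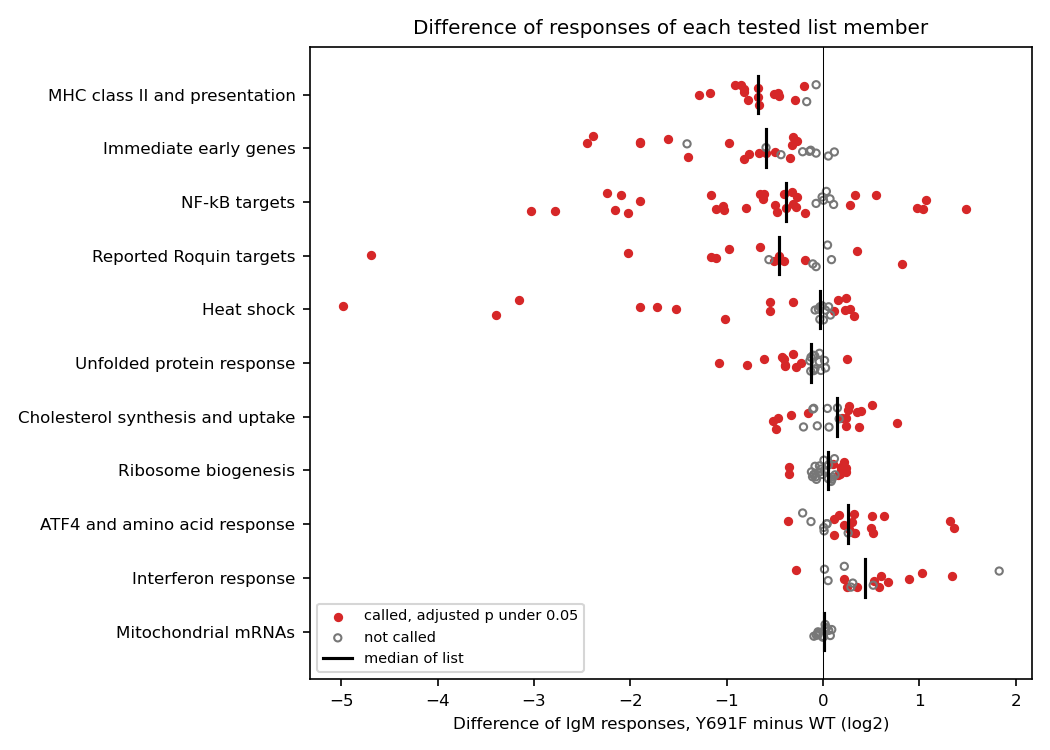
Each point is 1 tested member of a gene list, placed by its difference of responses (log2, Y691F minus WT), filled points were called and the vertical line is the median of the list. Of the MHC class II members 15 of 17 were called lower, of the immediate early genes 16 of 25, and 10 of 18 interferon genes were called higher.

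Smaller rises were also found in survival, secretory and stress genes. BCL2, the antiapoptotic founder of its family, averaged 695 CPM in untreated WT, 890 CPM in untreated Y691F, 2916 CPM in WT with IgM and 2351 CPM in Y691F with IgM. The untreated lines were in 1 order and the stimulated lines in the other, a difference of -0.67 (SE 0.04). HRK, a BH3-only activator of apoptosis, rose 20.2-fold and 5.84-fold. Over the BCL2 family, 6 of 14 were called lower and 4 higher. In the unfolded protein response, 10 of 23 were lower and 1 higher, all 11 as smaller responses. PPP1R15A, which ends the stress block of translation, rose from 50.8 to 870 CPM on average in WT and from 44.5 to 360 CPM in Y691F, and HSP90B1, an ER chaperone, rose by 2.76 and 1.97. Plasma cell genes were lower for 10 of 20 and higher for 5, among them PRDM1, their master regulator, which rose by 2.90 and 3.16. HILPDA and ADM, genes of the hypoxia response, rose by 1.97 and 1.91 in WT and by 0.46 and 0.76 in Y691F.

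Of 15 tested ERK feedback genes, 6 were called lower, 4 higher and 5 were not called, with a median difference of -0.07. The phosphatases DUSP2, DUSP5, DUSP8, DUSP1 and DUSP10 and the inhibitor SPRY1 were called lower in the difference, and DUSP2, from 51.8 to 57.5 CPM untreated to 1106 to 1167 CPM in WT, went from 80.5 to 92 CPM to 603 to 676 CPM in Y691F. The ETS factors ETV4 and ETV5, with PHLDA1 and SPRED2, were called higher. ETV4 was at 3.15 to 4.03 CPM in untreated WT and at 1.66 to 1.89 CPM in untreated Y691F, and with IgM at 19.1 to 20.2 CPM and 23.3 to 24.1 CPM. It rose 5.39-fold in WT and 13.2-fold in Y691F.

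The smaller falls, the largest class, included genes of germinal center B cells and of B cell receptor signalling. BCL6, the master repressor of the germinal center, was at 563, 543 and 551 CPM in untreated WT and at 125, 123 and 128 CPM with IgM. Y691F was at 362, 369 and 364 CPM untreated and at 147, 139 and 151 CPM with IgM. It fell 4.41-fold in WT and 2.5-fold in Y691F, a difference of 0.82 (SE 0.04, adjusted p = 3.67e-28), with Y691F lower before and higher after stimulation. CD38, an ectoenzyme of germinal center and plasma cells, fell from 129 to 132 CPM to 35.5 to 38.3 CPM in WT and from 181 to 185 CPM to 94.1 to 94.3 CPM in Y691F, and was higher in Y691F in both states. P2RY8, a receptor that confines B cells to follicles, fell from 210 to 220 CPM to 73.9 to 83 CPM in WT and from 196 to 204 CPM to 136 to 145 CPM in Y691F. BLK, a Src family kinase of B cells, fell 4.32-fold and 2.44-fold. NAV2, a cytoskeletal protein, fell in both lines to low levels, from 57.4 to 58.7 CPM to 0.594 to 0.957 CPM in WT and from 35.2 to 38 CPM to 1.46 to 1.61 CPM in Y691F.

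Over the germinal center list, 11 of 26 were called higher in the difference and 7 lower, with a median of 0.09. Among the called, 10 were smaller responses in Y691F, 7 were larger and 1 was called in Y691F alone. The differences of the tested members, called or not, ran from -2.3 to 0.925, so the largest in size was on the lower side. The higher ones included IRF8, which fell by 0.76 and 0.28, and LMO2, which rose by 2.86 and 3.69. In B cell receptor signalling, 15 of 33 were higher and 8 lower, and 14 of the called were smaller responses. PLCG2, the phospholipase that opens the calcium response, fell from 517 to 284 CPM on average in WT and from 613 to 429 CPM in Y691F, and the adaptor receptor CD81 fell by 1.40 and 0.95. LYN, a Src family kinase, was called in WT alone, with a rise from 114 to 120 CPM to 157 to 165 CPM, against 122 to 127 CPM untreated and 121 to 126 CPM with IgM in Y691F. With library totals its Y691F response was called as a fall of 0.18 (adjusted p = 1.87e-06), which made LYN opposite.

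Most replication and mitosis genes fell with IgM. Of 29 tested G1/S and replication genes, 25 fell in WT and 26 in Y691F, and of 26 G2/M genes, 22 and 20 fell. In the G1/S list 9 were higher in the difference and 2 lower, and with library totals 9 and 6. E2F2 fell by 2.54 in WT and 2.07 in Y691F, the cyclin CCND3 by 2.25 and 1.60, and the clamp PCNA by 0.90 and 0.60. In the G2/M list 8 were higher and 1 lower. CDC20, an activator of the anaphase-promoting complex, fell by 0.13 in WT and rose by 0.24 in Y691F. Among p53 targets, 5 of 25 were higher and 7 lower; the repair gene DDB2 fell from 63.6 to 68.1 CPM to 24.9 to 27.6 CPM in WT and from 77.5 to 81.8 CPM to 56.4 to 58.8 CPM in Y691F.

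Among the rises that were larger in Y691F was that of ZBTB32, a zinc finger repressor of activated B cells. It was at 9.38, 9.08 and 10.6 CPM in untreated WT and at 44.2, 46.3 and 45.6 CPM with IgM. In Y691F it was at 7.32, 7.97 and 7.15 CPM untreated and at 126, 120 and 128 CPM with IgM. It rose 4.72-fold in WT and 16.6-fold in Y691F, a difference of 1.82 (SE 0.10, adjusted p = 3.66e-27). CALCRL, a peptide hormone receptor, rose from 4.02 to 5.12 CPM to 6.88 to 7.14 CPM in WT and from 3.13 to 4.08 CPM to 27.1 to 30.1 CPM in Y691F. The untreated lines were near each other for CALCRL and overlapped, and the stimulated ones were far apart. RTN4R, the Nogo receptor, showed the other pattern: 1.65 to 1.95 CPM in untreated WT against 0.184 to 0.403 CPM in untreated Y691F, and 3.38 to 3.78 CPM against 3.99 to 4.34 CPM with IgM, where the lines did not differ past the threshold (adjusted p = 0.29). PTPN6, the phosphatase SHP-1 that restrains B cell receptor signals, likewise rose from a lower start, 14.3 to 15 CPM in Y691F and 24 to 27.1 CPM in WT, to overlapping levels of 62.9 to 66.1 CPM and 58.4 to 63.9 CPM.

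Some amino acid and sterol genes were among the larger rises. Of 23 tested ATF4 and amino acid response genes, 15 were called higher and 1 lower, with a median difference of 0.26 and median responses of 0.47 in WT and 0.87 in Y691F. The median gap of Y691F over WT in this list was -0.286 in untreated cells and -0.0755 with IgM, on the log2 scale. DDIT4, an inhibitor of mTORC1, rose by 2.04 and 3.36, and the sensor SESN2 by 0.47 and 1.10. SESN2 averaged 49 CPM in WT and 29.6 CPM in Y691F untreated, and 67.7 CPM and 63.2 CPM with IgM. SLC7A5, the large neutral amino acid transporter, went from 961 to 1034 CPM to 2814 to 2834 CPM in WT and from 878 to 953 CPM to 3669 to 3825 CPM in Y691F. PHGDH, PSAT1 and PYCR1 of serine and proline synthesis fell in both lines and less so in Y691F. In cholesterol synthesis and uptake, 10 of 23 were higher and 5 lower, with a median of 0.15, and the called held 6 larger and 6 smaller responses. SQLE, squalene epoxidase, was at 129, 134 and 131 CPM in untreated WT, 220, 224 and 226 CPM in WT with IgM, 196, 206 and 203 CPM in untreated Y691F and 586, 565 and 611 CPM in Y691F with IgM, a difference of 0.77 (SE 0.04, adjusted p = 1.05e-26). LSS, the next enzyme, did the reverse: its WT response of -0.02 had a 95% interval from -0.08 to 0.04, and in Y691F it fell from 406 to 440 CPM to 285 to 304 CPM. With library totals the WT response of LSS was called too, as a fall of 0.15 (adjusted p = 5.01e-06), and LSS was a larger fall in Y691F. INSIG1, a brake on the pathway, rose by 2.36 in WT and 1.84 in Y691F.

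Interferon response genes were higher in the difference for 10 of 18 tested and lower for 1, OAS1, with a median of 0.44 and median responses of -0.56 in WT and 0.26 in Y691F. The median changed side, but the members moved both ways: 5 rose and 9 fell in WT, and 8 rose and 8 fell in Y691F. With TMM factors 0 were called opposite, and 5 of the called were smaller responses in Y691F. IRF9 and IRF7, transcription factors of this response, were called in Y691F alone, with rises of 1.09 and 0.78. IFITM1 rose by 1.07 in Y691F from the lowest level of the 4 groups, 1.11 to 1.45 CPM, and reached 2.41 to 3.17 CPM, within the range of 2.87 to 4.41 CPM of WT or below it. With library totals its WT response was called as a fall of 0.41 (adjusted p = 0.016), which made IFITM1 opposite. BST2, TAP1 and MX2 fell in both lines and less in Y691F. MX1 and IFI6 were not called.

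Ribosome biogenesis genes rose for 32 of 33 tested in each line, with 10 higher in the difference and 2 lower, or 9 and 5 with library totals. Glycolysis and hypoxia genes were mixed, 13 of 30 higher and 9 lower. The enzymes PKM, LDHA, ALDOA and TPI1 were higher by 0.17 to 0.22, and VEGFA, an angiogenic factor, rose by 2.69 in WT and 3.34 in Y691F although its mean with IgM was 294 CPM in WT and 122 CPM in Y691F. None of 13 mitochondrial mRNAs was called by edgeR, with differences from -0.10 to 0.09, and 0 had an unadjusted p under 0.05 or were called by the DESeq2 Wald test or limma-voom. Of cytosolic ribosomal protein genes, 6 of 30 were lower and 1 higher, the largest of these 0.21 in size.

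**Figure D5:**
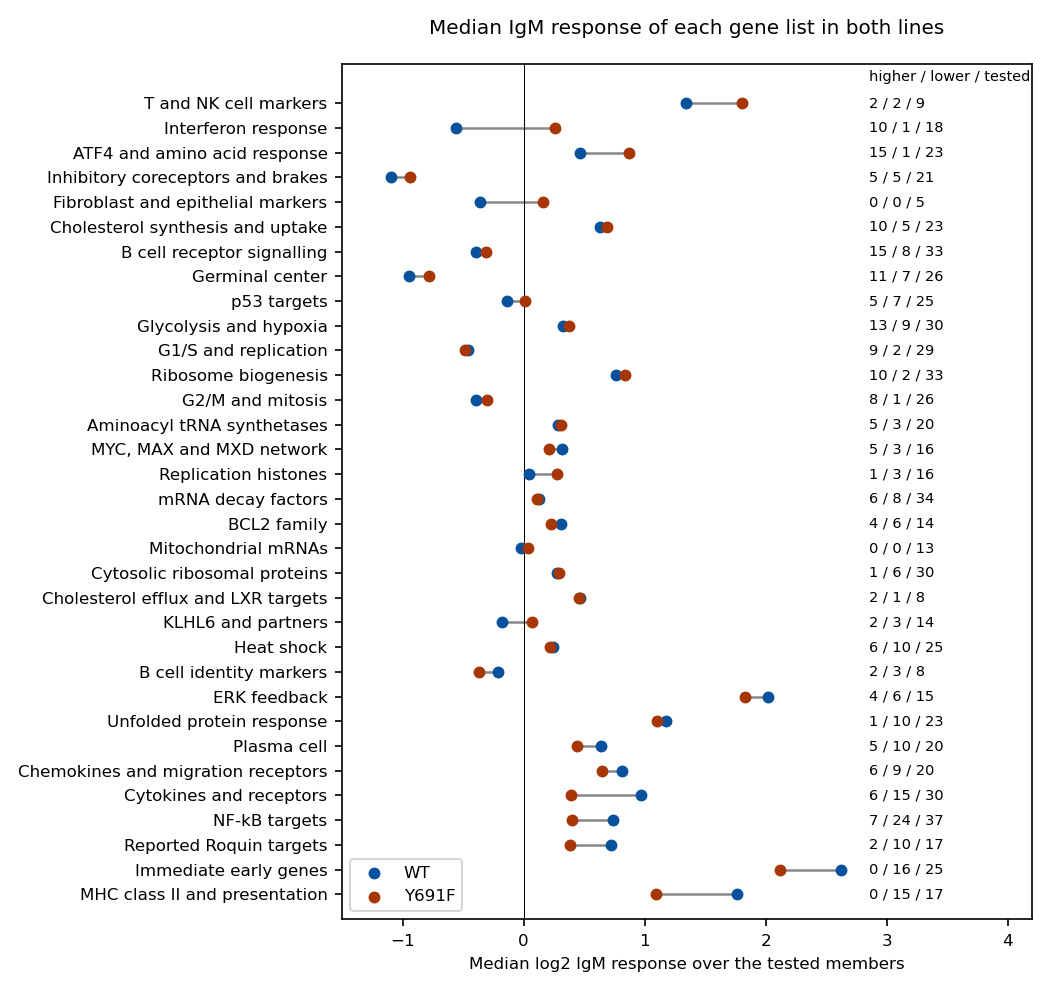
Median log2 IgM response of the tested members of each gene list in WT and in Y691F, ordered by the median difference, with the number called higher, called lower and tested at the right. The MHC class II and immediate early lists lie at the lower end, with medians of 1.76 and 2.62 in WT and 1.09 and 2.12 in Y691F. The median of the interferon list changes side, from -0.56 to 0.26, while 0 of its members were called opposite.

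Larger falls in Y691F, at 326, were fewer than larger rises. KCNA3, a potassium channel of lymphocytes, was at 7.92 to 8.78 CPM in untreated WT and 18.3 to 22.2 CPM in untreated Y691F, and with IgM both lines overlapped at 3.49 to 4.25 CPM. It fell 2.22-fold in WT and 5.14-fold in Y691F, a difference of -1.21 (SE 0.17). Of 8 B cell identity markers, 3 were called lower and 2 higher in the difference, with a median of -0.05. The differences of the 8 ran from -0.668 to 0.402. CD79A and PAX5 were higher by 0.22 and 0.40. MS4A1, the antigen CD20, fell from 843 to 890 CPM to 428 to 452 CPM in WT and from 773 to 854 CPM to 334 to 349 CPM in Y691F. CD22, an inhibitory lectin, fell by 0.14 and 0.44. DLG2, PSORS1C3 and HHAT had larger differences, of -1.20 to -1.26, at means under 5 CPM in every group, and 2 of them lost the call without single libraries. The adjusted p of DLG2 was 0.338 without WT with IgM replicate 1, 0.123 without Y691F with IgM replicate 1 and 0.0646 without WT untreated replicate 2. That of PSORS1C3 was 0.122 without Y691F with IgM replicate 3 and 0.0769 without WT with IgM replicate 1.

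The genes called in WT alone included KLHL6, the adaptor that binds Roquin2. It was at 542, 550 and 526 CPM in untreated WT and at 332, 324 and 332 CPM with IgM. The Y691F libraries were at 393, 384 and 401 CPM untreated and at 402, 399 and 419 CPM with IgM. KLHL6 fell 1.64-fold in WT, and its Y691F response of 0.05 had a 95% interval from -0.01 to 0.10. The difference was 0.76 (SE 0.04, adjusted p = 1.11e-28), and the order of the lines changed, with Y691F below WT untreated and above it with IgM. With library totals the Y691F response was called as a small fall. MCL1, an antiapoptotic BCL2 relative, fell from 1419 to 1442 CPM to 1090 to 1109 CPM in WT and was at 1408 to 1472 CPM in the 6 Y691F libraries, and with library totals it was a smaller fall in Y691F. LBH, a transcription cofactor, fell 4.45-fold in WT from 5.16 to 6.6 CPM, and was at 0.887 to 1.34 CPM in all Y691F libraries, already at the level that WT reached with IgM. C10orf54, the checkpoint protein VISTA, fell from 1.25 to 1.8 CPM to 0.0638 to 0.419 CPM in WT and was at 0.945 to 1.29 CPM in Y691F.

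The genes called in Y691F alone included FST, which encodes the activin antagonist follistatin. It was at 1.61 to 1.85 CPM in untreated WT and at 1.8 to 2.36 CPM with IgM. Y691F was at 4.74, 3.68 and 4.18 CPM untreated and at 31.7, 34.8 and 30.7 CPM with IgM, a rise of 7.69-fold and a difference of 2.64 (SE 0.23, adjusted p = 1.5e-16). CPED1 was at 0.712 to 1.68 CPM in all WT libraries and 0.414 to 0.88 CPM in untreated Y691F, and at 8.81 to 8.9 CPM in Y691F with IgM. LRRN3, a leucine-rich repeat membrane protein, was at 0.128 to 0.344 CPM in WT, 1.47 to 2.06 CPM in untreated Y691F and 6.28 to 7.72 CPM in Y691F with IgM. Among the 206 falls of this kind, TLCD1 was at 6.76 to 9.54 CPM in all WT libraries and fell from 4.43 to 5.52 CPM to 1.89 to 2.35 CPM in Y691F. ACADS, a fatty acid dehydrogenase, fell from 3.68 to 4.78 CPM in untreated Y691F to 1.11 to 1.33 CPM, into the range of 1.08 to 2.18 CPM of the WT libraries.

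Of 34 tested mRNA decay factors, 8 were called lower in the difference and 6 higher (41.2%), with a median of 0.02. With IgM, 21 of them rose and 12 fell in WT, and 18 rose and 11 fell in Y691F. RC3H1, Roquin1, rose from 32.4 to 33.6 CPM to 57 to 67.6 CPM in WT and from 42.2 to 50.3 CPM to 61.6 to 64.2 CPM in Y691F, so that the lines overlapped with IgM, a difference of -0.48 (SE 0.07, adjusted p = 2.99e-07). RC3H2 rose by 0.13 in WT, and its Y691F response of -0.02 had an interval from -0.08 to 0.04, a difference of -0.15 (SE 0.05, adjusted p = 0.00914). With library totals the WT response of RC3H2 was -0.01 (adjusted p = 0.894), and its Y691F response was called as a fall of 0.19 (adjusted p = 4.16e-08). ZC3H12A, the nuclease Regnase-1, rose by 0.62 in WT and 0.17 in Y691F, and the Y691F rise was not called with library totals. ZFP36L1 rose by 2.77 and 2.30. Among KLHL6 and its partners, 3 of 14 were lower and 2 higher.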

How the data were processed

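Strand-specific polyA+ RNA-seq, with dUTP in the second strand per the labels' protocols, was available as whole-number read counts per Ensembl gene, deposited by the authors with RPKM values, which were left out. The submitters' processing notes name GRCh38, STAR 2.5.0b and DESeq2. The read counter and the annotation: not given in the sources used here. Genes were filtered with filterByExpr of edgeR 4.0.16 (R 4.3.3), counts were scaled with TMM factors, and the quasi-likelihood test with robust fitting was run on all 12 libraries with 1 coefficient per group. Adjusted p-values are from this test, 2-sided, with Benjamini-Hochberg adjustment over 15112 genes. Those given with library totals or without a named library are from the same test refitted in that setting, adjusted over the genes tested there. Each SE was derived from the F statistic, as the absolute log2 change over its root. The replicate spread was small (biological coefficient of variation 2.505%), and p-values measure that spread only. Any 2 libraries of a group differed 1.43 to 2.41 times as much as counting error (chi-square over degrees of freedom), so none was counted as a copy.

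Classes came from 3 contrasts (the difference and both responses) at an adjusted p under 0.05. Named genes were RC3H2, RC3H1, TNFAIP3 and KLHL6, the 4 largest differences per class and direction among called genes with a mean of at least 1 CPM, at least 10 counts in each group and a plain symbol, and the list members with the lowest adjusted p, at most 4 per list. Other list members are named beside their list's count. The comparison, the gene lists and the rule were chosen with earlier results of these data known. Some named genes are not reported here. The script was tested on simulated data. Alternatives were DESeq2 1.42.0 size factors and Wald test, library totals, limma-voom (limma 3.58.1), 2 other filters, the replicate number as a block, a threshold of 0.01 and leaving out each library.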

Additional observations from a re-analysis of the deposited data

Results flagged for a closer look

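The difference of responses was tested for every gene. The named genes whose responses were called in opposite directions in the 2 lines are listed here with that difference on the log2 scale. Among genes that rose in WT and fell in Y691F, the difference was -2.10 for LTA, -2.03 for TNF, -1.90 for HSPA1A, -1.73 for HSPA1B, -1.53 for DNAJB1, -1.37 for FCRL5, -0.97 for MYC and -0.88 for IL10RA. Among genes that fell in WT and rose in Y691F, it was 2.76 for GATA4, 2.71 for SLC7A8, 2.24 for HES6, 1.69 for TRIB2, 1.36 for CHAC1, 0.63 for SPRED2, 0.37 for CDC20, 0.32 for GAPDH and 0.25 for KEAP1. With library totals in place of TMM factors, HES6, SPRED2 and GAPDH were called in WT alone, IL10RA in Y691F alone, and KEAP1 as a smaller fall in Y691F. The other 12 of these genes kept opposite responses under all 3 scalings.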

How the results depend on the processing

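Of 148 named genes, 131 had a value under all 20 settings, and 130 of these kept the direction and the call of the difference. The other 17 were removed by the filter of 5 CPM, and 13 of these kept both under the 19 settings that gave a value. No named gene reversed. HIST1H2BD, FAM227B, DLG2, PSORS1C3 and HIST2H2AA4 lost the call under some. The DESeq2 Wald test gave 117 genes lower by at least 2-fold (186 in the main test), and limma-voom a slope of the Y691F on the WT response of 0.8281 (0.8208). Without a filter on low counts, r between the responses was 0.4977 and the slope 0.4793, and 18 genes were called in neither response. With a filter of 5 CPM, 120 genes were higher and 88 lower by at least 2-fold, r was 0.944, the slope was 0.8427, and the median difference of the T and NK cell markers was -0.05678 in place of 0.46, over fewer markers. At an adjusted p under 0.01, 1105 genes were called lower, 132 were opposite and 16 were called in neither response, and the lines differed in both states in the same direction for 440 and in opposite directions for 323. For the other changes the cause was not tested. The share of calls that were higher was 57.1% with TMM factors, 60.3% with DESeq2 size factors, 63.4% with the Wald test and 46.4% with library totals.

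Leaving out 1 library in turn, called genes were 2019 to 2225 higher and 1337 to 1623 lower, with 188 to 219 opposite, 1579 to 1703 smaller, 776 to 925 larger, 422 to 566 called in WT alone, 366 to 439 in Y691F alone and 6 to 15 in neither. At least 2-fold apart were 205 to 233 higher and 170 to 194 lower. The lines differed untreated only for 621 to 744, with IgM only for 1481 to 1752, in both alike for 595 to 671, in both opposite for 452 to 525 and in neither for 107 to 161. The r was 0.894 to 0.9016 and the slope 0.7977 to 0.8239.

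With the replicate block, 3898 genes were called, 57% higher, with 220 opposite, 1814 smaller, 911 larger, 522 in WT alone and 423 in Y691F alone. Replicate numbers did not pair the libraries: 2 of 18 same-numbered pairs correlated over 0.1 (-0.0793 to 0.126, against -0.181 to 0.131 for 36 other pairs), and 5 of 12 libraries correlated best with their own number. Depth limited low genes: 81 called genes had a mean under 1 CPM, and 51 had a group under 10 counts.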

Other observations

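The T cell receptor constant segments were called in the difference. Of the 21 T and NK cell markers, 4 had no count in any library, CD3D and CD2 among them. Others were counted, such as LCK at up to 48.3 CPM and CD247 at up to 13.3 CPM. CD247 was called as well, with a fall of 1.73 in WT and 1.16 in Y691F, a difference of 0.57. TRBC2 was at 6.63 to 7.11 CPM in untreated WT, 61.6 to 69.4 CPM in WT with IgM, 23.8 to 24.8 CPM in untreated Y691F and 95.1 to 103 CPM in Y691F with IgM. It rose in both lines, 9.63-fold in WT and 4.08-fold in Y691F, and was higher in Y691F in both states. TRBC1 had a difference of -0.92 and TRAC one of 0.46, a larger rise in Y691F, and reads shared by TRBC1 and TRBC2 could not be assigned from what the sources used here say of the counting.

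MYLIP, an LXR target that marks the LDL receptor for degradation, rose from 12.4 to 42.6 CPM on average in WT and from 13.8 to 22.6 CPM in Y691F, a difference of -1.07 (edgeR quasi-likelihood adjusted p = 3.25e-15). Of the 8 tested cholesterol efflux and LXR genes, MYLIP was the 1 called lower, and NR1H2 and LPCAT3 were called higher. Among 20 aminoacyl tRNA synthetases, 5 were called higher and 3 lower, and none differed by more than 0.25 in size.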
